A study of Mus musculus with 12 samples.

Results

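Plau, Plaur, Plat, Serpine2 and Serpinb2 code for proteins of the plasminogen activation system. They were taken by gene name from the deposited expression tables of 12 tumors, where they are 5 of 22630 genes, and their levels were compared between tumors grown without doxycycline (dox), with dox, and with dox followed by its removal. No member differed between these groups beyond the spread among tumors, and each reached its highest level in a single plus-dox tumor.

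Plasminogen is the inactive precursor of plasmin, a protease that dissolves fibrin, degrades extracellular matrix and activates some matrix metalloproteinases. Plau codes for urokinase and Plat for tissue plasminogen activator, which both cut plasminogen to plasmin, urokinase mainly at the cell surface and tissue plasminogen activator mainly on fibrin. Plaur codes for the receptor that holds urokinase at the cell surface, while Serpine2 (protease nexin) and Serpinb2 (plasminogen activator inhibitor of the ov-serpin clade, largely kept inside the cell) code for inhibitors, and in pancreatic cancer the system is known chiefly for its part in invasion.

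All tumors were grown under the skin of NSG mice 8 to 10 weeks of age (immunodeficient, without mature lymphocytes or NK cells), from 500000 injected KCip53-1 cells, with 2 tumors per mouse. KCip53-1 is 1 line, sorted for the dsRed reporter from a primary pancreatic tumor of a mouse carrying, among other alleles, Ptf1a-Cre, TREp53R270H and R26rtTa/rtTa, so every group shares the Cre driven in pancreatic epithelium and the dox-inducible p53R270H transgene; by the study's account the line has lost its wild-type Trp53, and it was kept in dox in culture. By the sample labels, the 4 no-dox tumors were never given dox, the 4 plus-dox tumors had 0.2 g/l dox with 5% sucrose in the drinking water for 36 days, and the 4 off-dox tumors had the same for 33 days and then 3 days without it. The study's text describes the withdrawal differently, as begun when tumors could first be felt, so the time off dox rests on the labels. Dox was given to the mouse in its drinking water, so both tumors of a mouse belong to the same group. Which tumors shared a mouse is not given in the sources used here, so p-values measure the spread between these tumors. They come out too small where both tumors of a mouse are among the 4 of a group.

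Counted reads ran from 19845923 to 33137609 per tumor, and the share of mapped reads that fell on genes was 88.4% to 89.4% without dox, 82.2% to 87.1% with dox and 81.1% to 85.8% after its removal. Trp53, whose reads include those of the p53R270H transgene and of host cells, lay between 40.1 and 57.4 RPKM in all 12 tumors (reads per kilobase of exon, scaled to the mapped reads of the tumor). Trp53 had a log2 fold change of 0.04 (SE 0.11, adjusted p = 0.89 by edgeR) in tumors labelled plus-dox against those labelled no-dox. The higher level that induction would add was thus not seen in Trp53 reads, and group names here are those of the labels throughout. The study did stain tumors of KCip53 cells for dsRed, the reporter expressed with the transgene. It found none without dox, uneven staining with dox and fewer positive cells after removal. Whether the sequenced tumors were among those stained is not given in the sources used here. On the first principal component of 14548 genes, with 49.8% of the variance, plus-dox tumor 2 stood at 101.9 and off-dox tumor 4 at 66.9, while the other 10 tumors lay between -43.5 and 6.23. Values without these 2 tumors are given beside the results that rest on them.

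The promoters of the receptor and of both inhibitors are printed here because only these members had an entry in the promoter table used. Among them are the member with the largest ratio of highest to lowest level over the tumors (Serpinb2, 28.9) and the one with the smallest (Serpine2, 1.92). In the RefSeq promoter table (GRCm38.p6) 3 of the 5 members matched an entry, and the 250 bases before the start are written 5′ to 3′ on the strand of the gene. Capitals mark exact matches on either strand to 3 motifs. The AP-1 site, bound by Fos and Jun proteins, was searched as TGANTCA. The TATA box, which places the start of transcription in many regulated genes, was searched as TATAAA. The GC box, bound by Sp family factors and common in promoters without a TATA box, was searched as GGGCGG.
Plaur, chr7:24462233-24462482, plus strand: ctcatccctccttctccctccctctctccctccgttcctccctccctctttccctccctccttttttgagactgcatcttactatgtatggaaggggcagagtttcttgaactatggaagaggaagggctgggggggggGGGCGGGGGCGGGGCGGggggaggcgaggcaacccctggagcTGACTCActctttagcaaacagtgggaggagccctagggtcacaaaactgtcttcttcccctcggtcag
Serpinb2, chr1:107511173-107511422, plus strand: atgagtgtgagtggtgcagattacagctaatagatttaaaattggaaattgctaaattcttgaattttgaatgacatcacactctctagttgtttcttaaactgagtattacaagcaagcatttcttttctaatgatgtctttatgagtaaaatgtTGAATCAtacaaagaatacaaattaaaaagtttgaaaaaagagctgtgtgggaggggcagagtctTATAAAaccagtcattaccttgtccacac
Serpine2, chr1:79858666-79858915, minus strand: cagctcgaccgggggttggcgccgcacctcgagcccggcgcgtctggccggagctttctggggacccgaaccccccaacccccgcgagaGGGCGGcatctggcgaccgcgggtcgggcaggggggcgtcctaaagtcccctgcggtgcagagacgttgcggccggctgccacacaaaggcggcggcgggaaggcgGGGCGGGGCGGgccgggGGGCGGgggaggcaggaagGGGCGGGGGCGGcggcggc
The Plaur window held an AP-1 match 69 to 63 bases before the start and 3 GC boxes, of which 2 overlap by a base. The Serpinb2 window held an AP-1 match 94 to 88 bases and a TATA box 29 to 24 bases before the start. In the Serpine2 window 6 GC boxes were found, 2 of them overlapping by a base, and neither other motif. For Serpinb2 the first of 2 starts in the table was used. Over 27025 mouse genes with such a window, 6.87% held the AP-1 letters, 12.97% the TATA box and 32.94% the GC box, and a match describes letters only. Each window occurs once on the same chromosome of mm9, the build of the tumor data.

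Plau, the gene for urokinase (mm9 chr14:21655884-21662610, plus strand, 11 exons, 2343 bp of exon), had a coefficient of variation of 19.0% over the 12 tumors, the smallest of the 5 genes. The no-dox tumors 1 to 4 had 31.1, 30.9, 35.4 and 28.4 RPKM. The plus-dox tumors had 21.8, 45.8, 37.4 and 31.8 RPKM. The off-dox tumors had 38.1, 33.0, 37.4 and 26.3 RPKM. The highest and the lowest of the 12 values both fell in the plus-dox group, so that the other groups lay within its range. Mean levels were 31.4 ± 2.91 RPKM (SD, n = 4) for no-dox, 34.2 ± 10.1 for plus-dox and 33.7 ± 5.44 for off-dox. Without plus-dox tumor 2 and off-dox tumor 4 the latter were 30.3 ± 7.92 and 36.2 ± 2.77 (n = 3).

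Plat, the gene for tissue plasminogen activator (chr8:23868216-23893320, plus strand, 14 exons, 2532 bp of exon), was above Plau in all 12 tumors. In no-dox tumors Plat had 68.0, 61.1, 119 and 56.1 RPKM. In plus-dox tumors Plat had 60.8, 175, 63.3 and 63.6 RPKM. In off-dox tumors Plat had 43.5, 65.6, 45.1 and 165 RPKM. Plus-dox tumor 2 and off-dox tumor 4 were the highest 2 of the 12, no-dox tumor 3 came next, and the remaining tumors of all groups overlapped. The means, in the order no-dox, plus-dox, off-dox, were 76.0 ± 28.9, 90.8 ± 56.4 and 79.8 ± 57.7 RPKM (SD, n = 4). Without plus-dox tumor 2 the plus-dox mean was 62.6 ± 1.54, and without off-dox tumor 4 the off-dox mean was 51.4 ± 12.3 (n = 3).

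Plaur, which codes for the urokinase receptor (chr7:25247519-25260892, plus strand, 7 exons, 1396 bp of exon), had the highest level per length of the 5 genes in 11 of 12 tumors. No-dox tumors held 80.3, 82.3, 119.8 and 81.8 RPKM of Plaur. Plus-dox tumors held 71.6, 179, 75.6 and 62.5 RPKM. Off-dox tumors held 78.5, 85.0, 47.9 and 166 RPKM. The same 3 tumors led as for Plat, and 3 of the 4 plus-dox tumors were below every no-dox tumor while the fourth was above all of them. Mean Plaur was 91.0 ± 19.2, 97.3 ± 55.0 and 94.3 ± 50.2 RPKM (SD, n = 4), and without plus-dox tumor 2 and off-dox tumor 4 it was 69.9 ± 6.74 (plus-dox) and 70.5 ± 19.8 (off-dox, n = 3).

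Serpine2, an inhibitor of thrombin, urokinase and plasmin that is secreted and binds to matrix (chr1:79790896-79855240, minus strand, 9 exons, 2055 bp of exon), had a highest level 1.92 times the lowest and a coefficient of variation of 20.4%, close to that of Plau. Its no-dox values were 30.2, 37.0, 36.9 and 27.5 RPKM. Its plus-dox values were 34.3, 52.8, 37.6 and 31.3 RPKM. Its off-dox values were 45.8, 31.5, 28.8 and 39.1 RPKM. The 3 groups overlapped, with plus-dox tumor 2 again highest but off-dox tumor 1 second. The means were 32.9 ± 4.81, 39.0 ± 9.58 and 36.3 ± 7.69 RPKM (SD, n = 4), and without plus-dox tumor 2 and off-dox tumor 4 the last 2 were 34.4 ± 3.19 and 35.4 ± 9.13 (n = 3).

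Serpinb2, the gene for plasminogen activator inhibitor type 2 (chr1:109408000-109422177, plus strand, 8 exons, 2047 bp of exon), had the lowest level and the widest range, with 55 to 1900 counts per tumor. Without dox, Serpinb2 had 1.63, 1.72, 4.90 and 0.982 RPKM. With dox, it had 1.17, 28.3, 6.49 and 1.45 RPKM. After removal of dox, it had 1.09, 3.12, 1.87 and 2.76 RPKM. Plus-dox tumor 2 was far above the rest, plus-dox tumor 3 and no-dox tumor 3 followed, and the other 2 plus-dox tumors lay within the no-dox range. Mean Serpinb2 was 2.31 ± 1.76, 9.36 ± 12.9 and 2.21 ± 0.912 RPKM (SD, n = 4), and without plus-dox tumor 2 and off-dox tumor 4 the last 2 were 3.04 ± 3.00 and 2.03 ± 1.02 (n = 3).

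**Figure D1:**
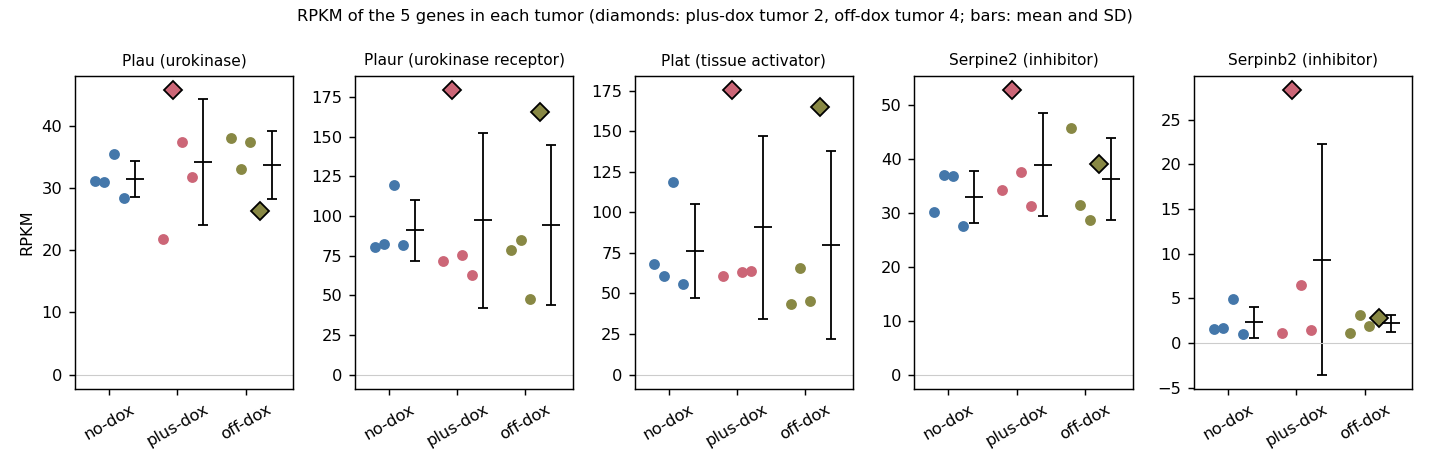
RPKM of each gene (y axis, a separate linear scale per panel) in the 12 tumors by group (x axis). Points are tumors, diamonds are plus-dox tumor 2 and off-dox tumor 4, and the bars give the mean and SD of 4 tumors, which runs below 0 for Serpinb2 in plus-dox because the SD of 12.9 exceeds the mean of 9.36. Plus-dox tumor 2 is the top point of every panel, and off-dox tumor 4 is second for Plaur and Plat but second lowest for Plau.

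The order of levels was Plaur, Plat, then Serpine2 and Plau, then Serpinb2, in RPKM. Plaur exceeded Plat in 11 of 12 tumors, with plus-dox tumor 4 as the exception, and Plat exceeded Serpine2 in 11 of 12, with off-dox tumor 1 as the exception. Serpine2 and Plau could not be ordered, as Serpine2 was higher in 7 of 12 tumors. Plau exceeded Serpinb2 in all 12.

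Whether dox or its withdrawal went with different levels of the 5 genes was tested with edgeR's quasi-likelihood test, with Benjamini-Hochberg adjustment over 17561 genes. The labels give dox with sucrose for the dox groups only, so dox, sucrose and the p53R270H transgene cannot be told apart. A gene was called when its adjusted p was below 0.1, its fold change above 1.5 and its mean level above 0.25 RPKM. None of the 5 genes was called in any of the 3 comparisons. The background was low, as edgeR called 0% of genes for plus-dox against no-dox, 1.34% for off-dox against no-dox, and 0% for off-dox against plus-dox. In the comparisons with 0 calls by edgeR, 2400 genes (plus-dox against no-dox) and 537 (off-dox against plus-dox) had an unadjusted p below 0.05. DESeq2, the tool the study used, called 128 and 6 genes here without moderated fold changes. The groups overlapped for every member in every comparison, whereas over all 14586 genes above 0.25 RPKM, 4.42% lay wholly higher and 3.89% wholly lower in plus-dox than in no-dox tumors, 5.16% and 7.45% in off-dox than in no-dox tumors, and 0.528% and 0.912% in off-dox than in plus-dox tumors. Since the tumors were not sorted, fewer cells of a type and less RNA per cell cannot be told apart in any of these values.

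Between plus-dox and no-dox tumors, Serpinb2 had the greatest difference, a log2 fold change of 2.04 (SE 0.90, 95% interval 0.08 to 4.01), with an unadjusted p of 0.043 and an adjusted p of 0.354 by edgeR. An exact two-sided permutation test on log2 CPM (counts scaled to library size) gave p = 0.457 for Serpinb2, where 4 against 4 tumors can reach 0.0286 at the smallest. Without plus-dox tumor 2 the log2 fold change of Serpinb2 was 0.45, so that 1 tumor carried most of the difference. Serpine2 differed by 0.26 (SE 0.20, 95% interval -0.17 to 0.69) and Plau by 0.14 (SE 0.20, -0.30 to 0.58) on the log2 scale, with adjusted p-values of 0.54 and 0.75 by edgeR. For Plat the log2 fold change was 0.26 (SE 0.49, -0.81 to 1.34) and for Plaur 0.11 (SE 0.40, -0.77 to 0.99), with adjusted p-values of 0.81 and 0.91 by edgeR. Leaving out plus-dox tumor 2 turned the sign of 3 genes, to -0.28 for Plat, -0.38 for Plaur and -0.036 for Plau.

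Off-dox tumors were compared with the same no-dox tumors, and the values are therefore not independent of those above. The log2 fold changes were 0.12 for Plau, 0.09 for Plaur, 0.11 for Plat, 0.17 for Serpine2 and -0.04 for Serpinb2, with SEs of 0.20, 0.40, 0.49, 0.20 and 0.89. Their adjusted p-values by edgeR were 0.75, 0.92, 0.92, 0.64 and 0.99. Without off-dox tumor 4 the log2 fold change was -0.36 for Plaur and -0.56 for Plat, that is, below the no-dox level as the point estimate but again not called.

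Removal of dox for 3 days, compared directly with continued dox, gave log2 fold changes of -0.02 for Plau, -0.02 for Plaur, -0.15 for Plat and -0.09 for Serpine2, each with an adjusted p of 1 by edgeR. Serpinb2 differed by -2.08 (SE 0.91, 95% interval -4.05 to -0.10), with an unadjusted p of 0.0406, an adjusted p of 1 by edgeR and an exact two-sided permutation p of 0.429. Without plus-dox tumor 2 the Serpinb2 value was -0.48. The intervals for Plat and Plaur span a change of more than 1.5-fold in both directions, so differences of that size were not detectable with 4 tumors per group.

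**Figure D2:**
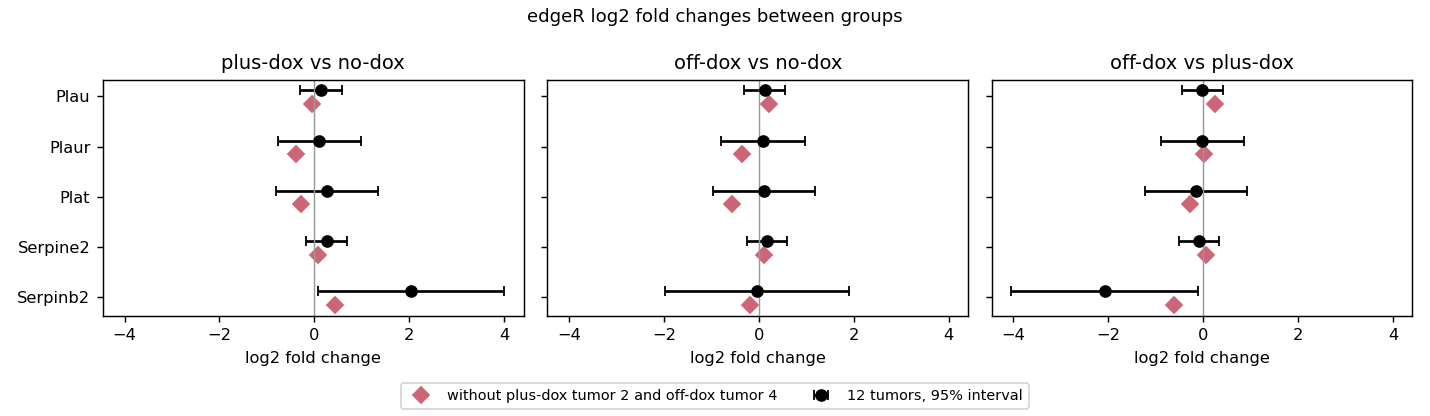
Log2 fold change of each gene (x axis) by edgeR in the 3 comparisons. Black points and bars give the estimate and 95% interval from 12 tumors, diamonds the estimate without plus-dox tumor 2 and off-dox tumor 4. All intervals include 0 except those of Serpinb2 against plus-dox (0.08 to 4.01 and -4.05 to -0.10), whose diamonds lie closer to 0.

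Single tumors accounted for much of the spread within groups. All 5 genes were highest in plus-dox tumor 2, as were 14.9% of all genes over 0.25 RPKM. Folds were taken from log2 CPM, as a tumor's value less the mean log2 value of the other 3 tumors of its group. The fold of plus-dox tumor 2 was 12.7 for Serpinb2, 2.84 for Plat, 2.60 for Plaur and 1.56 each for Plau and Serpine2, and 0.261%, 2.72%, 3.27%, 11.1% and 11.2% of 14548 genes, respectively, had a larger one. In off-dox tumor 4 the fold on the same scale was 3.42 for Plat and 2.54 for Plaur, but 1.54 for Serpinb2, 1.18 for Serpine2 and 0.763 for Plau. Plus-dox tumor 2 and off-dox tumor 4 were thus the highest 2 tumors for the receptor and the tissue activator, as for 9.33% of all genes, and went apart for urokinase.

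Some epithelial markers were low in both of these tumors. Epcam and Cdh1, cell surface and junction proteins that define epithelium, were at 7.76 and 22.1 RPKM in plus-dox tumor 2 and at 40.9 and 42.1 RPKM in off-dox tumor 4, against 72.3 to 388 and 57.5 to 191 RPKM in the other 10 tumors. These tumors were the lowest 2 for 4 of 8 epithelial markers, as for 15.5% of all genes, while the summed level of the list, at 1363 and 1555 RPKM, lay within the 1048 to 3033 RPKM of the other tumors. Summed fibroblast markers were 2928 and 1441 RPKM against 1008 to 2104, and summed endothelial markers 138 and 62.4 RPKM against 36.7 to 63.1. Both sums were thus highest in plus-dox tumor 2, while off-dox tumor 4 lay within the range of the others. By single genes, the 2 tumors were the highest 2 for 3 of 8 endothelial and 2 of 8 fibroblast markers. The same held for 1 of 6 T and NK cell markers, and for 9.33% of all genes. Summed macrophage markers (1198 and 937 RPKM against 1000 to 1604) and neutrophil markers (78.7 and 47.9 against 37.2 to 79.6, with 7 of 8 found) showed no such place for plus-dox tumor 2. Retnlg of the neutrophil list was at 0 in some tumors. Keratinocyte markers summed to 13.6 and 18.2 RPKM against 13.05 to 54.5, with Krt5 or Krt1 at 0 in some tumors, skeletal muscle markers to 387 and 8.95 against 8.18 to 1062, adipocyte markers to 187 and 191 against 13.04 to 521, and T and NK cell markers to 5.09 and 8.27 against 0.767 to 7.09. Of the T and NK cell list, Cd3e and Cd3g were each at 0 in some tumors. NSG hosts lack mature cells of these types, and the source of these low sums was not tested. Between groups, summed epithelial markers were 2280 to 3033 RPKM in the 4 no-dox, 1363 to 2003 in the 4 plus-dox and 1048 to 2608 in the 4 off-dox tumors. In the same order, T and NK cell markers summed to 0.767 to 2.82, 4.03 to 5.09 and 2.15 to 8.27 RPKM. No-dox and plus-dox tumors did not overlap for either list. Keratinocyte markers summed to 20.7 to 54.5, 13.6 to 27.9 and 13.05 to 19.7 RPKM, apart between no-dox and off-dox tumors. Fibroblast markers summed to 1008 to 1876, 1480 to 2928 and 1163 to 1441 RPKM, apart between plus-dox and off-dox tumors. Every other list overlapped between groups in all comparisons. The part of these cells in the levels of the 5 genes was not tested.

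Of the 10 pairs of members, Plaur with Plat had the highest Pearson's r and Plat with Serpinb2 the highest Spearman's rho. Over the 12 tumors Pearson's r of log2 CPM (counts scaled to library size) was 0.93 for Plaur with Plat, and 0.76 in the 10 tumors without plus-dox tumor 2 and off-dox tumor 4. Spearman's rho for the same pair was 0.72 and 0.52, against 0.79 and 0.71 for Plat with Serpinb2. Pearson's r for Plat with Serpinb2 was 0.73 and 0.63, Plaur with Serpine2 0.71 and 0.42, and Plaur with Serpinb2 0.66 and 0.43. Plau stood apart from its receptor, with r of 0.23 and 0.10 for Plaur, and 0.20 and 0.05 for Plat, but 0.68 and 0.57 for Serpinb2. The tumors share 1 injected line and vary in depth and cell makeup, so these values are a description.

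**Figure D3:**
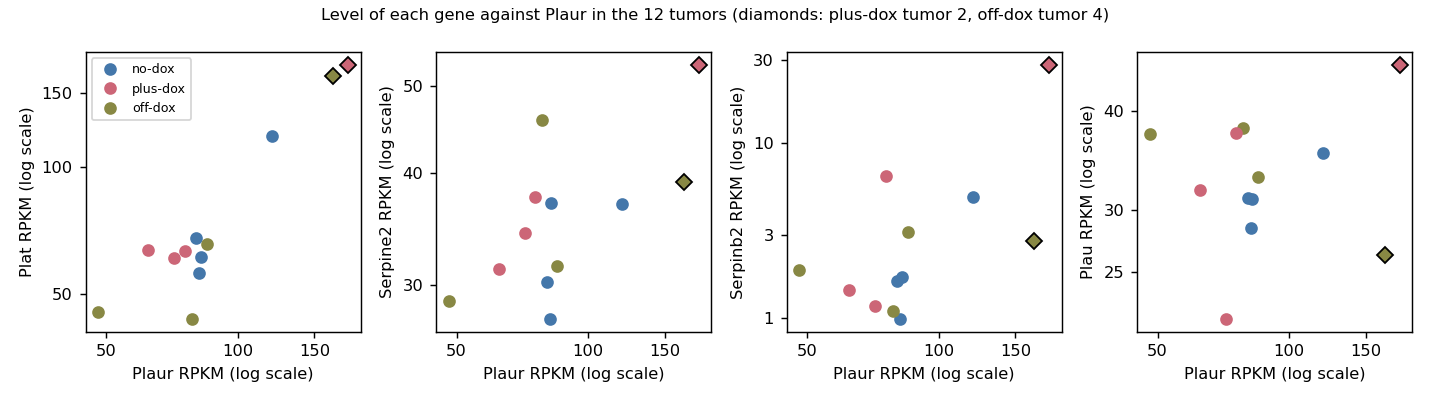
RPKM of Plat, Serpine2, Serpinb2 and Plau (y axes, log scale) against RPKM of Plaur (x axis, log scale), with 1 point per tumor, colours for the groups and diamonds for plus-dox tumor 2 and off-dox tumor 4. Plat lines up with Plaur (r = 0.93 on log2 CPM), while Plau does not (r = 0.23), and off-dox tumor 4 is high for Plat at 165 RPKM but low for Plau at 26.3 RPKM.

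Among 12694 genes with a mean over 1 RPKM, the 3 with the highest r to each member over the 12 tumors were listed. The r in the 10 tumors without plus-dox tumor 2 and off-dox tumor 4 is given second. Both values are high by selection, as the genes were picked on tumors that include these 10, so the second is no independent check. For Plaur they were Cap1 (0.98, 0.95), Mtpn (0.98, 0.95) and Cpe (0.98, 0.97), and for Plat Procr (0.98, 0.97), Dnajc25 (0.98, 0.96) and Fam5c (0.97, 0.94). Procr, the endothelial protein C receptor of the anticoagulant pathway, had 37.7 RPKM in plus-dox tumor 2 and 26.6 in off-dox tumor 4 against 8.60 to 18.8 in the other 10 tumors. For Serpinb2 they were Pygl (0.96, 0.90), Rnf149 (0.95, 0.93) and Eltd1 (0.95, 0.86), for Plau Tmem189 (0.91, 0.87), Trp53i11 (0.86, 0.81) and Atf3 (0.86, 0.89), and for Serpine2 Asphd2 (0.87, 0.74), C2 (0.87, 0.74) and Sept4 (0.87, 0.76).

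The other genes of the pathway were described from a list of 39 genes, of which 35 had enough counts for the test. edgeR called none of them in any comparison, and the median log2 fold change of the list was 0.18 for plus-dox against no-dox (0.01 over all genes), 0.05 for off-dox against no-dox (0.007) and -0.06 for off-dox against plus-dox (-0.0005). Plg, the gene for plasminogen itself, which is made in liver, was at 0 to 0.0484 RPKM in the tumors.

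Surface proteins that bind plasminogen were abundant. Anxa2 ranged from 688 to 1599 RPKM and its partner S100a10 from 602 to 1218 RPKM over the 12 tumors, with the 4 genes of this role between -0.36 and 0.08 in log2 fold change for plus-dox against no-dox. Eno1 of this list has near-identical copies, so its value is uncertain.

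Clearance receptors take up complexes of activator and inhibitor. Lrp1, an endocytic receptor for urokinase and its inhibitors, had a log2 fold change of 0.62 (SE 0.17, adjusted p = 0.32 by edgeR) with dox and 0.51 (adjusted p = 0.14) off dox, and its off-dox tumors all lay above the no-dox tumors, as for 1 of 29 list genes and 5.16% of all genes. Mrc2, a collagen receptor that associates with the urokinase receptor, had 0.70 (SE 0.18, adjusted p = 0.32 by edgeR) with dox, and its plus-dox tumors all lay above the no-dox tumors, as for 1 of 29 list genes and 4.42% of all genes. For plus-dox against no-dox, Lrp1 and Mrc2 were called by DESeq2 without moderated fold changes (0.847% of all genes called) and by limma (0.638%), while DESeq2 with moderation (0.57%) called Mrc2 but not Lrp1. The no-dox and plus-dox tumors also did not overlap in the summed epithelial markers (2280 to 3033 against 1363 to 2003 RPKM). The same held for the low sums of T and NK cell markers (0.767 to 2.82 against 4.03 to 5.09 RPKM), in hosts without such mature cells. No-dox and off-dox tumors, which did not overlap for Lrp1, did overlap in summed epithelial markers (2280 to 3033 against 1048 to 2608 RPKM). They did not overlap in summed keratinocyte markers (20.7 to 54.5 against 13.05 to 19.7 RPKM). The part of any of these lists in the differences of Lrp1 and Mrc2 was not tested. Lrpap1, the chaperone of Lrp1, had -0.45 off dox with an adjusted p of 0.092 by edgeR, under the fold limit for a call.

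Of the substrates of plasmin, the metalloproteinase genes Mmp9 and Mmp13 had the same 2 leading tumors as Plaur and Plat. Mmp9, a gelatinase, was at 173 RPKM in plus-dox tumor 2 and 111 in off-dox tumor 4, against 9.77 to 32.5 in the other 10 tumors. Without plus-dox tumor 2 the plus-dox mean of Mmp9 was 23.2 RPKM, against 60.7 with it and 16.5 in no-dox tumors. Mmp13, a collagenase, was at 65.8 and 57.3 RPKM against 6.07 to 16.5. Of 29 list genes over 0.25 RPKM, 9 were highest in plus-dox tumor 2, as were 14.9% of all genes. For 4 (Itgb1, Mmp9, Mmp13 and Tgfb1) plus-dox tumor 2 and off-dox tumor 4 were the highest 2, as for 9.33% of all genes. A further 4 (St14, Hgfac, Serpini1 and Pzp) had them as the lowest 2, as for 15.5% of all genes. Among these was St14, the gene for the epithelial protease matriptase. Mmp3 (stromelysin) was lower in every off-dox than in every plus-dox tumor, as for 1 of 29 list genes and 0.912% of all genes, with a log2 fold change of -0.95 (SE 0.38, adjusted p = 1 by edgeR). The gap was narrow, from 45.8 RPKM as the highest off-dox to 46.8 as the lowest plus-dox value. The plus-dox mean of Mmp3 was 68.4 RPKM, and 56.8 without plus-dox tumor 2.

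**Figure D4:**
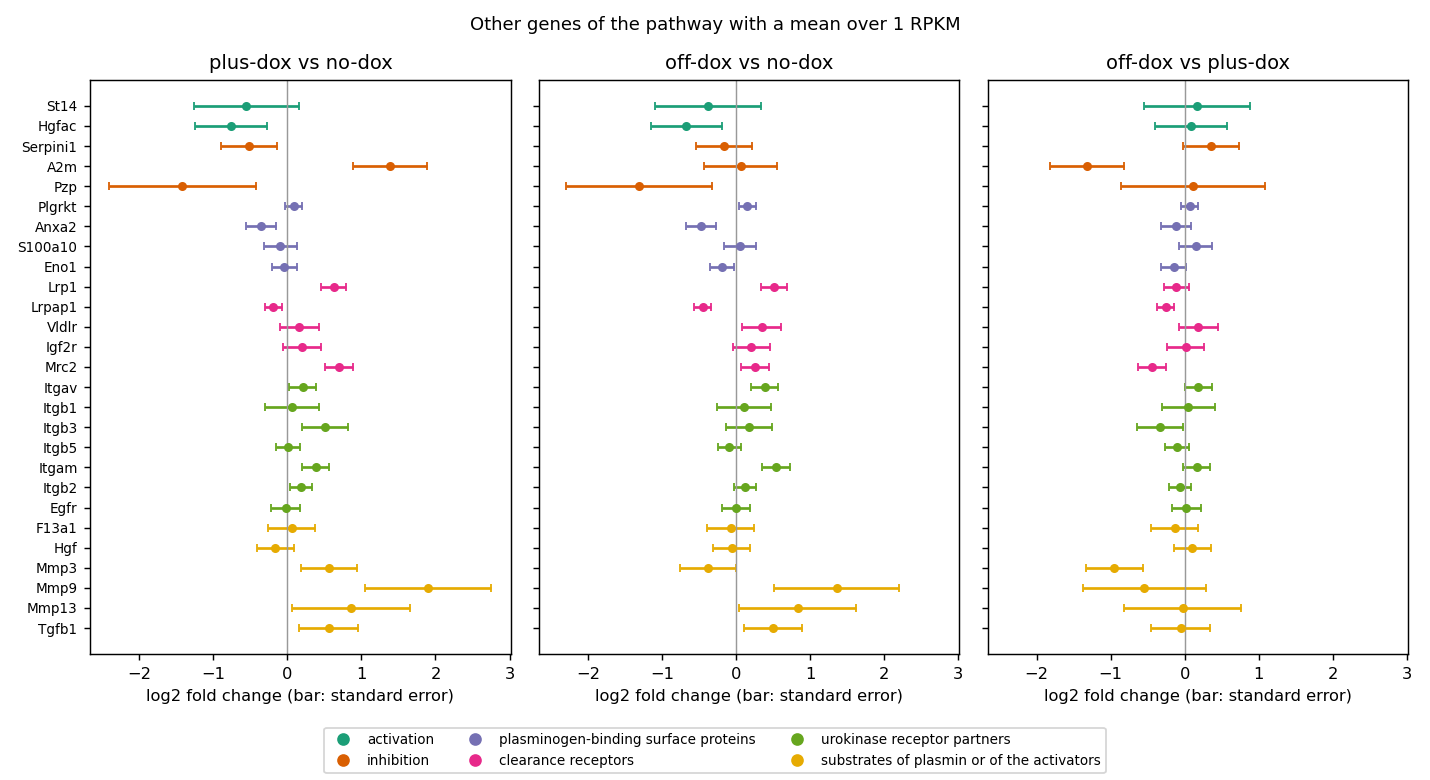
Log2 fold change (x axis, bars give the standard error) of 27 other pathway genes with a mean over 1 RPKM, coloured by role, in the 3 comparisons. Mmp9 lies farthest to the right with dox (1.90, and 0.52 without plus-dox tumor 2), and edgeR called none of the genes.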

How the data were processed

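Expression was measured by RNA sequencing (polyA, unstranded, 50-bp single-end reads) in 12 tumors, grouped by the sample labels. The authors mapped reads to mm9 with TopHat and, per the study's methods, condensed RefSeq to a single unstranded model per gene. The submitters' processing notes list TopHat 1.4.1, Bowtie 0.12.8, bedtools 2.16.2 and CASAVA 1.8.2. The deposited expected counts are read equivalents that the authors derived from coverage per base over the unambiguous exons, without normalization and with some fractions. The deposited RPKM values are the authors' own, per exonic kilobase and scaled to mapped reads. Handling of duplicate and multiply mapped reads is not given in the sources used here.

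Counts were rounded and tested with edgeR 4.0.16 (quasi-likelihood, TMM, at least 10 counts summed over the tumors, 17561 genes, 3 groups in 1 fit without covariates). Limits for a call were those of the study, with an exonic length over 250 bp. The study applied them to DESeq2 rather than edgeR, and reported its most significant differences between no-dox and plus-dox tumors. Log2 CPM used a prior count of 2. Two-sided exact permutation over 70 arrangements compared the log2 CPM of the members. Exon numbers come from the longest coding transcript of GENCODE vM1 on mm9, and none of the members overlaps another gene. Genes named are the members, the pathway list, the defining markers, Trp53 and the 3 genes most like each member. An allele of the line and a gene of the pathway list, which stays in the counts of that list, are not reported here. The members and lists were chosen with earlier results of these data known. Alternatives were DESeq2 1.42.0 (fold changes moderated or not), RLE scaling, other count filters, 8-tumor fits, a replicate block, a stricter adjusted p of 0.05, RPKM rescaled by TMM or logged with a pseudocount of 0.1, and each tumor left out. Fits without both plus-dox tumor 2 and off-dox tumor 4, and limma 3.58.1 (voom with tumor weights), were chosen after seeing the data. On simulated data for plus-dox against no-dox over 17405 genes, with 200 changed by 2 on the log2 scale, 94.5% were recovered and 8.25% of calls were false. The changed genes were drawn from those with higher counts, and calls were scored by adjusted p alone. Tumors were drawn independently, without tumors that stand apart over many genes. The recovery rate therefore does not hold for smaller changes or for the tumors measured here. Replicate counts differed by more than counting error, so no replicate pair was treated as 1 sample. The precision of every value rests on 4 tumors per group.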

Additional observations from a re-analysis of the deposited data

Results flagged for a closer look

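Of 42 groups of 4 values examined, 4 held a tumor whose gap to its nearest neighbour exceeded the 95% critical value of Dixon's test, where chance gives about 1 in 20. Plaur was at 119.8 RPKM in no-dox tumor 3, against 80.3 to 82.3 RPKM in the other no-dox tumors. Plaur was at 179 RPKM in plus-dox tumor 2, against 62.5 to 75.6 RPKM in the other plus-dox tumors. Plat was at 175 RPKM in the same tumor, against 60.8 to 63.6 RPKM. The summed skeletal muscle markers of plus-dox tumor 2 were 387 RPKM, against 120 to 147 RPKM in the other plus-dox tumors.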

How the results depend on the processing

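No member was called under any alternative, and the smallest adjusted p of a member was 0.2011. Of 315 member fold changes under alternatives, 276 kept their sign and 39 turned, in 10 of 15 results. Without plus-dox tumor 2 and off-dox tumor 4, log2 fold changes against no-dox were -0.040 (Plau), -0.38 (Plaur) and -0.28 (Plat) with dox and -0.36 (Plaur) and -0.55 (Plat) off dox, and off-dox against plus-dox 0.26 (Plau), 0.023 (Plaur) and 0.049 (Serpine2). With limma they were -0.26 (Plaur) and -0.055 (Plat) with dox, -0.092 (Plaur), -0.16 (Plat) and 0.34 (Serpinb2) off dox, and 0.17 (Plau), 0.17 (Plaur) and 0.035 (Serpine2) for off-dox against plus-dox. With single tumors left out, values against no-dox ran from -0.036 to 0.31 (Plau), -0.38 to 0.29 (Plaur), -0.28 to 0.59 (Plat), 0.074 to 0.36 (Serpine2) and 0.45 to 2.76 (Serpinb2) with dox. Off dox they ran from -0.36 to 0.31 (Plaur), -0.56 to 0.44 (Plat) and -0.29 to 0.68 (Serpinb2). Off-dox against plus-dox gave -0.19 to 0.16 (Plau), -0.47 to 0.46 (Plaur), -0.82 to 0.39 (Plat), -0.21 to 0.098 (Serpine2) and -2.45 to -0.48 (Serpinb2). Serpinb2 in that comparison was -0.19 with limma, -0.50 with moderated DESeq2 and -1.18 with the replicate block, against -2.08.

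Replicate numbers did not pair the tumors (mean r of same-numbered tumors -0.088, 2 of 12 pairs over 0.1), and no tumor correlated best with its own number in both other groups. With the replicate block, Plat gave -0.052 and Serpinb2 0.036 off dox, and Plau 0.016 for off-dox against plus-dox, while the genes called between off-dox and no-dox tumors went from 235 to 0.

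Over all genes, plus-dox against no-dox gave 0 calls by edgeR but 128 and 90 by DESeq2 without and with moderation and 112 by limma, and 0 to 3 with single tumors left out. For off-dox against no-dox the 235 calls became 615 and 396 (DESeq2), 641 (limma), 122 (no count filter), 365 (10 counts in every tumor), 3 (8 tumors), 0 (adjusted p under 0.05) and 471 (both tumors left out), and 0 to 789 with single tumors left out. Off-dox against plus-dox gave 6 and 4 by DESeq2, and 0 to 1 with single tumors left out. Of the pathway list, DESeq2 called 2 (Lrp1, Mrc2) and 1 (Mrc2) and limma 2 (Lrp1, Mrc2) with dox. Off dox limma called 2 (Lrp1, Itgam), the fit without both tumors 2 (Itgam, Anxa2), and fits with 1 tumor left out 0 to 1 (Itgam, without off-dox tumor 1). The cause of these changes was not tested. With 4 tumors per group, differences of 1.5-fold in Plat and Plaur lay within the 95% intervals. For Serpine2 a rise of that size against no-dox did too, with intervals up to 1.61-fold with dox and 1.51-fold off dox. The interval of Serpinb2 off dox against no-dox ran from 0.256-fold to 3.72-fold. Whether read depth or the number of tumors sets this limit was not tested.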

Other observations

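The ratio of Plat to Plau in RPKM, each per exonic length, ran from 1.14 in off-dox tumor 1 to 6.29 in off-dox tumor 4, with a median of 1.996 over the 12 tumors and a highest value of 3.35 without plus-dox tumor 2 and off-dox tumor 4. The lowest and the highest ratio thus both came from tumors taken 3 days after removal of dox. The ratio of Plaur to Plau ran from 1.28 to 6.31, and was also highest in off-dox tumor 4, with a highest value of 3.38 without the same 2 tumors. The ratio of Plat to Plaur kept to a narrower range of 0.554 to 1.02.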
